A study of Mus musculus with 2 samples.

Results

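The genes of the proteasome and of the factors that assemble, activate and inhibit it were examined in mouse embryonic stem cells (mESCs) given LIF with or without CHIR99021 (CHIR). Members were all identifiers of the longer deposited table whose name has the form of a proteasome subunit symbol (Psma, Psmb, Psmc, Psmd, Psme, Psmf or Psmg followed by a number). This rule found 46 of the 30774 identifiers, and it used no measured value. One array of each condition was compared, so there were 2 arrays and no replicate. Both samples are labelled as B6 mESCs from the inner cell mass. Serum medium and LIF, a cytokine acting through Stat3, were common to both. One received CHIR, an inhibitor of the kinase GSK3 that turns on Wnt/β-catenin signaling, and the labels give 12 h of treatment. The dose of CHIR on the arrayed cells is not given in the sources used here. The growth note of both samples names CHIR, so the labels do not settle whether the LIF cells had met CHIR earlier. The study's methods describe 46C mESCs, another line, and the labels were followed.

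The proteasome is the protease that degrades proteins tagged with ubiquitin. Its core particle is a barrel of alpha and beta rings, and the proteolytic sites lie on 3 of the beta subunits inside the barrel. A regulatory particle docks on the barrel, where its lid and base bind and deubiquitinate the substrate and its ring of ATPases unfolds it. In cells exposed to interferon the 3 catalytic beta subunits can be replaced by immunoproteasome subunits, which alter the peptides made for antigen presentation.

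Total RNA was labelled with biotin and measured on Illumina beadchips, on which the signal of a gene is the brightness of its beads in arbitrary units. A detection p-value compares each signal with the negative control beads of the same array. It says whether a gene was above background and does not test a difference between the conditions. A gene was detected with a p-value under 0.01. The labelled identity was checked with marker genes. Of 6 mESC markers on the arrays, 4 were detected on at least 1 array, with Pou5f1 at 12346 in LIF and 11309 in LIF plus CHIR, whereas Tdgf1 was not detected (26.6 and 14.6). None of 3 collagen genes of fibroblasts was detected, the highest signal being 24.7. Of 4 immune cell genes 1 was detected, Cd3e (102 in LIF and 90.8 in LIF plus CHIR), while Ptprc was below 0 on both arrays. The immune cell gene Cd74 (83.3 and 85.7) and the mESC marker Sox2 (441 and 400) had signal but missed the detection limit. Their p-values combine several probes, a case described below. None of 3 endoderm genes was detected, the highest signal being 33.7. Axin2, a feedback target of Wnt/β-catenin signaling, had a signal of 314 in LIF and 1178 in LIF plus CHIR, a log2 fold change of 1.91.

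None of the tested proteasome genes changed by the 1.5-fold limit that the study used. Fold changes could be taken for the 30 members detected on at least 1 array, and 0 were 1.5-fold higher and 0 were 1.5-fold lower in LIF plus CHIR. Over all 9615 identifiers tested in the same way, 4.11% were higher and 4.02% lower by this limit, and 2.2% passed it in either direction among the 3269 whose brighter signal was 1000 or more. Of the 30 members, 26 had such a bright signal. The median log2 fold change of the 30 members was -0.03, with an interquartile range from -0.08 to 0.05 and a full range from -0.39 (Psmb10) to 0.37 (Psme2). Over all identifiers the median was 0.00 with an interquartile range from -0.14 to 0.15, and over those at 1000 or more it was also 0.00, with an interquartile range from -0.10 to 0.10. Fewer members were higher (10) than lower (20), against 4827 higher and 4788 lower among all identifiers. At a limit of 1.2-fold, 2 members were higher, Psme2 and Psmb5, and 1 was lower, Psmb10. The background at this limit was 14% higher and 13.9% lower, or 5.78% and 6.24% at a signal of 1000 or more. The number of arrays limits the precision, since the spread between cultures was not measured, and no test of a difference was possible. A change in the share of cells of one kind and a change of RNA per cell cannot be told apart in these bulk samples, nor can the culture and its treatment.

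**Figure D1:**
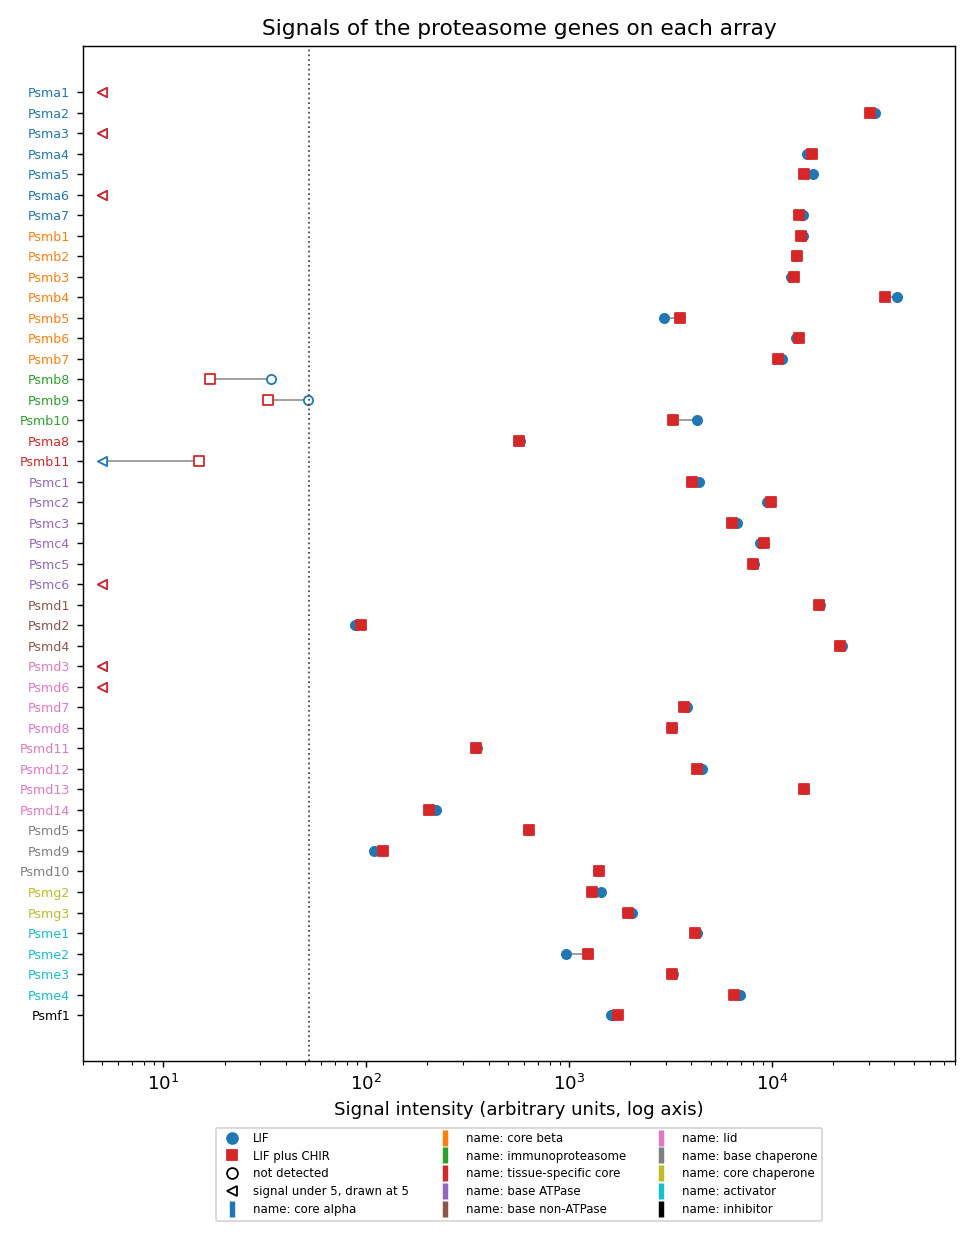
Signal of each of the 46 proteasome genes (rows, name coloured by class) on the LIF array (circles) and the LIF plus CHIR array (squares), on a log axis in arbitrary units. Open symbols are genes detected neither by p-value nor by signal, and triangles are signals under 5. The dotted line (51.9) is the dimmest signal detected in LIF among identifiers taken to have 1 probe. For most genes the symbols overlap, and among the filled symbols Psmb10, Psmb5 and Psme2 lie furthest apart.

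The remaining 16 members had no detection p-value under 0.01, and they fell into 2 kinds. For 7 of them the signal was well above background on both arrays (Psma5, Psmb2, Psmc2, Psmd5, Psmd8, Psmd11 and Psmd12), from 353 to 15881 in LIF. These identifiers gather several probes, and the deposited p-value combines them. The combined p-value matched the distribution of a sum of the probes' own p-values for 83.2% of 7430 such identifiers, and it gave the number of probes. Psma5, for example, had a signal of 15881 in LIF and 14259 in LIF plus CHIR from 2 probes, whose p-values summed to 0.20 and 0.31. Psmb2 had 13081 and 13206 from 3 probes with sums of 0.96 and 1.00. At least 1 probe of each was therefore not above background, while the summarised signal was bright. In a setting chosen after the values were seen, which counts a gene as detected by its signal, these 7 entered with log2 fold changes between -0.16 (Psma5) and 0.06 (Psmc2). Of the 37 members then measured, 0 were 1.5-fold higher and 0 were 1.5-fold lower, with a background of 5.42% of 10803 identifiers and a median of -0.02.

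The other 9 were detected neither by p-value nor by signal (Psma1, Psma3, Psma6, Psmb8, Psmb9, Psmb11, Psmc6, Psmd3 and Psmd6). Psma1, Psma3, Psma6, Psmc6, Psmd3 and Psmd6 encode parts of the constitutive particle, and their signals lay between -19.6 (Psma6 in LIF plus CHIR) and 3.04 (Psmd6 in LIF). Their identifiers gave no measurement of these genes. For Psma3, predicted loci offered another reading. A pair of identifiers outside the rule (LOC100047184 and LOC385905) are defined in the table as similar to the alpha7/C8 subunit, another name of the Psma3 protein. The first had a signal of 10318 in LIF and 12025 in LIF plus CHIR. The other had 10181 and 9893. Their log2 fold changes were 0.22 and -0.04, a difference of 0.26 between identifiers named for one subunit. LOC634015, defined as similar to the subunit encoded by Psmb3, had 19590 and 22003 (0.17), a difference of 0.12 from Psmb3 itself. Which transcripts these near-identical entries report was not tested. The differences between them are as large as those of most members between the arrays.

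**Figure D2:**
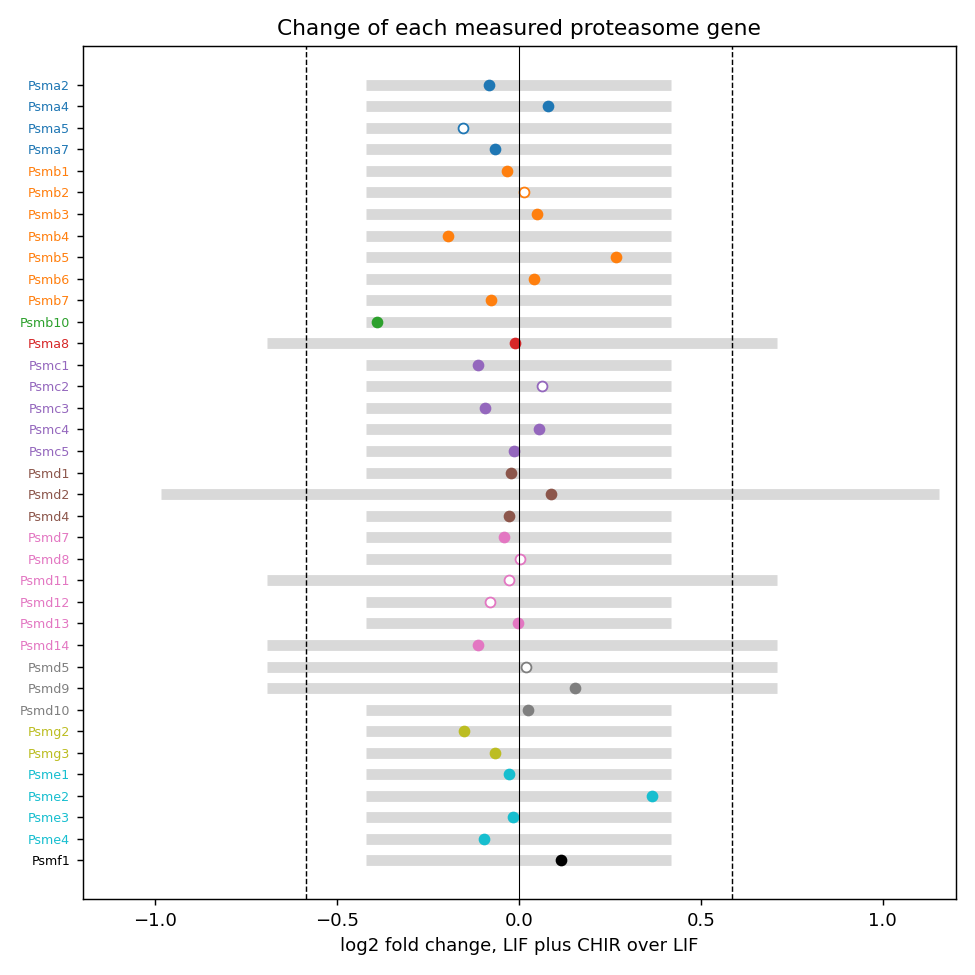
log2 fold change of LIF plus CHIR over LIF (x axis) for the 37 measured proteasome genes. Filled circles passed the detection p-value and open circles were detected by signal only, grey bars span the middle 95% of all tested identifiers in the same range of brightness (under 100, 100 to 1000, 1000 or more), and dashed lines mark 1.5-fold. Every circle lies within its grey bar, with Psmb10 (-0.39) and Psme2 (0.37) nearest to the ends. The range is that of the brighter signal, which for Psme2 was the one with CHIR.

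Among the alpha subunits, which form the outer rings and the gate of the core, 3 of 7 were tested, and none passed 1.5-fold. Psma2 had a signal of 32267 in LIF and 30441 in LIF plus CHIR, a log2 fold change of -0.08 and the lowest of the class. Psma4 was the highest, with 14905 and 15749 (0.08). Psma7 had 14180 and 13556 (-0.06). Each of these changes was matched or exceeded by over 55% of the identifiers of like brightness, from 55.8% for Psma2 to 64.6% for Psma7.

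Among the 7 constitutive beta subunits 6 were tested, and the class held both directions. Psmb4, a structural subunit and the brightest member, had 41265 in LIF and 36063 in LIF plus CHIR, a log2 fold change of -0.19. The catalytic subunit Psmb5, which carries the chymotrypsin-like site, had 2931 and 3526, and its log2 fold change of 0.27 (1.2-fold) was the highest among the core subunits tested. At a signal of 1000 or more, 11.7% of identifiers moved at least as far as Psmb5 and 21.6% as far as Psmb4. The other catalytic subunits moved less, with 13104 and 13482 for Psmb6 (caspase-like site, 0.04) and 11233 and 10649 for Psmb7 (trypsin-like site, -0.08). The structural subunits Psmb1 (14107 and 13796, -0.03) and Psmb3 (12400 and 12827, 0.05) completed the class. Psmb3 was detected with CHIR only (p-value 0.036 in LIF and 0.0054 in LIF plus CHIR). On each array this p-value combines 2 probes, whose p-values summed to 0.27 in LIF and 0.10 in LIF plus CHIR.

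The immunoproteasome subunits Psmb8, Psmb9 and Psmb10 take the places of Psmb5, Psmb6 and Psmb7. Psmb10 was bright on both arrays, with 4246 in LIF and 3240 in LIF plus CHIR. Its log2 fold change of -0.39 (1.31-fold lower) was the lowest of the 30 members tested, and 5.63% of identifiers at 1000 or more moved at least as far. Psmb10 was lower relative to its counterpart Psmb7 by a log2 difference of -0.31. Psmb9 had 51.6 in LIF and 32.9 in LIF plus CHIR, with detection p-values of 0.011 and 0.046. Psmb8 had 33.9 and 16.9, with 0.012 and 0.043. Both missed the detection limit of 0.01 on each array and narrowly in LIF, so no fold change was taken, and their change relative to Psmb6 and Psmb5 was not measured. Of the 3 immunoproteasome subunits only Psmb10 was thus measured above background. The lower signals of Psmb8 and Psmb9 with CHIR were near background, so no direction is given for the class. The Psmb8 identifier carries no Entrez gene number in the table. The array annotation places Psmb10 (Entrez gene 19171) in band 8qD3, Psmb9 in 17qB1, and Psmb5 (Entrez gene 19173) in 14qC3.

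The promoters of Psmb10 and Psmb5 are shown because these members were furthest apart in the core. They are the 250 bases before the transcription start, from RefSeq on GRCm38.p6, at chr8:105938393-105938642, minus strand, and chr14:54617996-54618245, minus strand. Capitals mark the only match to any of 7 motifs searched on both strands, an antioxidant response element (TGACNNNGC), the kind of site bound by Nfe2l1, which activates proteasome genes when proteasome activity falls short.

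Psmb10: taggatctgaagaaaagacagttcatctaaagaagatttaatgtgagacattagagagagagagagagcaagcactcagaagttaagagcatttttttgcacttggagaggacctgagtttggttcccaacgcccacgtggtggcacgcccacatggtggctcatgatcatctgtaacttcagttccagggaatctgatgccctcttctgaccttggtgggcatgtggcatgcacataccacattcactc

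Psmb5: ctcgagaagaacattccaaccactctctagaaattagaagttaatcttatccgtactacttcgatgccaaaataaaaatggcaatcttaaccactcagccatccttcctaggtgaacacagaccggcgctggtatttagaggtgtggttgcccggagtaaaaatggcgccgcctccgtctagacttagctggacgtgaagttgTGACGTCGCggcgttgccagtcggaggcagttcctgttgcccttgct

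The Psmb10 window held none of the motifs. No match says only that these letters are not in this window.

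The promoter windows of 38 members (41 windows) were found by symbol or gene number, and the motifs were counted in them. A member was counted if any of its windows held the motif, whereas the background shares are per window. The antioxidant response element was present in 5 members (13.2%), Psmb5, Psmb6, Psmc6, Psmd9 and Psmd12, against 10.2% of all 32851 windows and 11.4% of the 6170 windows of tested genes. Of these, the 3 tested members Psmb5, Psmb6 and Psmd9 had log2 fold changes of 0.27, 0.04 and 0.15. The value of Psmd9 was 0.01 with normexp fitted on all identifiers and 0.14 with normexp fitted on identifiers taken to have 1 probe. Psmd12, counted by signal only, had -0.08, and Psmc6 was not detected. The ETS motif (CCGGAAG) was present in 11 members (28.9%), against 6.91% of all windows and 14.4% of those of tested genes. The GC box (GGGCGG), a site of Sp and Klf factors, was present in 55.3% of members, 32.7% of all windows and 60% of those of tested genes, and the CCAAT box in 36.8%, 33.8% and 35.5%. The TCF motif (CTTTGAT), bound by the partners of β-catenin, was found in Psmd10 alone (2.63% of members, against 3.21% of all windows and 2.35% of those of tested genes). Psmd10 had a signal of 1382 in LIF and 1406 in LIF plus CHIR, a log2 fold change of 0.02. The Stat motif TTCNNNGAA was found in Psmb8 alone (2.63%, against 7.02% and 5.77%), and the interferon-response core (GAAA, any 2 bases, then GAAA) in Psmb3, Psmd4 and Psmd9 (7.89%, against 2.98% and 2.38%). Of 80 matches in the members' windows, 6 overlapped a match to another motif.

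Tissue-specific core subunits were checked as well. Psma8, an alpha subunit known from the testis, was detected on both arrays, with 572 in LIF and 567 in LIF plus CHIR (-0.01). Psmb11, the beta subunit of the thymus, was not detected, with 2.96 and 14.97.

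No subunit of the regulatory particle passed 1.2-fold among those tested. The background at this limit was 14% higher and 13.9% lower, or 5.78% and 6.24% at a signal of 1000 or more. Of the 17 subunits of the particle on the arrays 10 were tested, and their log2 fold changes lay between -0.11 and 0.09. In LIF plus CHIR 2 were higher and 8 lower, against 4827 higher and 4788 lower among all identifiers. Of the ATPases of the base, Psmc1 had the lowest value, with 4333 in LIF and 4009 in LIF plus CHIR (-0.11). Psmc4 had the highest, with 8750 and 9085 (0.05). Psmc3 (6737 and 6310, -0.09) and Psmc5 (8105 and 8021, -0.02) lay between them. Psmc2 was counted by signal only, with 9400 and 9811 (0.06).

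The large scaffold Psmd1 had 17251 in LIF and 16972 in LIF plus CHIR (-0.02). Psmd4, a ubiquitin receptor of the base, had 22057 and 21619 (-0.03). Psmd2, the other scaffold, was dim on the arrays, with 88.2 and 93.9 (0.09), and 81.6% of identifiers under 100 moved at least as far. Of the 8 lid subunits 3 were tested. Psmd14, the deubiquitinase of the lid, had 221 and 205 (-0.11), Psmd7 had 3783 and 3674 (-0.04), and Psmd13 had 14407 and 14366 (0.00). Psmd8, Psmd11 and Psmd12, counted by signal only, had 3205 and 3209 (0.00), 353 and 346 (-0.03), and 4498 and 4254 (-0.08).

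The chaperones that assemble the particles did not pass 1.5-fold either. Psmg2, which helps to form the alpha ring, had 1434 in LIF and 1292 in LIF plus CHIR (-0.15). Psmg3, another of these chaperones, had 2043 and 1953 (-0.06). Psmd9, a chaperone of the base, had 109 and 121 (0.15), and it was detected with CHIR only (p-values 0.0101 and 0.0033). Of identifiers between 100 and 1000, 51% moved at least as far as Psmd9. Psmd5, another base chaperone, was counted by signal only, with 623 and 631 (0.02).

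Of the alternative caps of the core all 4 were detected on both arrays. Psme2, a subunit of the interferon-inducible activator that works with the immunoproteasome, had 962 in LIF and 1240 in LIF plus CHIR. Its log2 fold change of 0.37 (1.29-fold) was the highest of the 30 members tested, and 6.55% of identifiers at 1000 or more moved at least as far. Psme2 reached this range only with CHIR, and its LIF signal lay in the range from 100 to 1000. In that lower range 29% of identifiers passed 1.2-fold in either direction, against 12% at 1000 or more. Psme1, the partner of Psme2 in the same ring, had 4265 and 4184 (-0.03), so Psme2 was higher relative to Psme1 by 0.39 on the log2 scale. LOC621823, defined in the table as similar to the Psme2 protein, was dim, and its signal of 58.7 in LIF and 47.3 in LIF plus CHIR differed in the opposite direction (-0.31). Among identifiers under 100, 47.3% moved at least as far as LOC621823. The nuclear activator Psme3 had 3257 and 3221 (-0.02), and Psme4 had 6951 and 6496 (-0.10). Psmf1, an inhibitor of the core in the test tube, had 1608 and 1741 (0.11) and was detected in LIF only (p-values 0.0048 and 0.017).

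Psme1 and Psme2 lie in the same band, 14qC3 (Entrez genes 19186 and 19188), and their promoters are printed because the genes encode partners and differed in their values. They are the 250 bases before the start, from RefSeq on GRCm38.p6, at chr14:55578244-55578493, plus strand, and chr14:55591102-55591351, minus strand, the first of the windows listed for Psme2. Capitals mark the only motif match in each, a GC box, read on the opposite strand in Psme2.

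Psme1: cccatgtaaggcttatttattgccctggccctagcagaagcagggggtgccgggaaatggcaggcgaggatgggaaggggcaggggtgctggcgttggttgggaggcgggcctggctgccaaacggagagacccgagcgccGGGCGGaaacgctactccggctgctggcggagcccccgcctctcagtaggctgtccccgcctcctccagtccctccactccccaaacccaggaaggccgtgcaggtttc

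Psme2: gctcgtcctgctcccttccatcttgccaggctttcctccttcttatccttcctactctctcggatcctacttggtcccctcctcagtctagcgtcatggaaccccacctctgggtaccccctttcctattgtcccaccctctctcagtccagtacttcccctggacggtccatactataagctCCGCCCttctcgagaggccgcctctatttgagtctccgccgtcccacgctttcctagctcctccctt

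**Figure D3:**
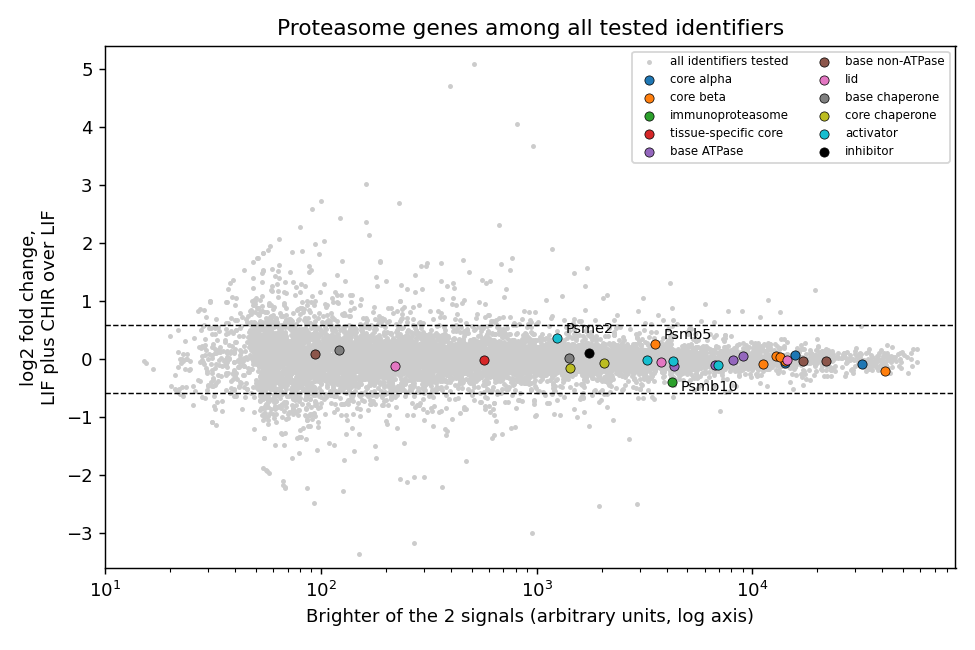
log2 fold change of LIF plus CHIR over LIF (y axis) against the brighter of the 2 signals (x axis, log scale, arbitrary units) for all 9615 tested identifiers (grey) and the 30 tested proteasome genes (coloured by class). Dashed lines mark 1.5-fold, and all coloured points lie between them.

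Genes that act with the proteasome were described from 4 lists, of which 32 genes were on the arrays. In each list 0 of the tested genes were 1.5-fold higher and 0 were 1.5-fold lower, against the same background of 4.11% higher and 4.02% lower. Of 13 proteasome-associated genes 10 were tested, with a median log2 fold change of -0.08 and a range from -0.16 (Zfand2a) to 0.24 (Uchl5). Uchl5, a deubiquitinase that binds the regulatory particle through the receptor Adrm1, had 1038 in LIF and 1222 in LIF plus CHIR. Adrm1 had 4208 and 4323 (0.04). Pomp, the chaperone that matures the core, had 20696 and 19732 (-0.07). Nfe2l1 had 3402 and 3713 (0.13). Of the list of ubiquitin genes and of the Vcp complex, which extracts ubiquitinated proteins, all 7 on the arrays were tested, from -0.05 (Vcp) to 0.12 (Uba1), with the polyubiquitin gene Ubb at 48337 and 48405 (0.00).

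The list of class I antigen presentation genes, which use the peptides that the proteasome makes, also held Irf1. It spread more widely, on few values. Of its 8 genes on the arrays 3 were tested, and their median was 0.18. The width came from Irf1, the only gene of these with a lower signal in LIF plus CHIR. Irf1, a transcription factor that induces immunoproteasome genes, had 1305 in LIF and 933 in LIF plus CHIR, a log2 fold change of -0.48, and 3.67% of identifiers at 1000 or more moved at least as far. Its signal reached this range in LIF only. Tapbp, which loads peptides on class I molecules, had 54.6 and 62.2 (0.19) and was detected in LIF only (p-values 0.0031 and 0.022). The class I heavy chain H2-D1 had 148 and 168 (0.18). Of identifiers of like brightness 65.1% moved at least as far as Tapbp and 44.4% as far as H2-D1. With normexp fitted on all identifiers the values of Tapbp and H2-D1 were 0.01 and 0.02. Fitted on identifiers taken to have 1 probe they were 0.15 and 0.16. The background spread in LIF was 588 by the first fit and 15.7 by the second. H2-K1, another class I heavy chain, was not detected at 0.01 and had 30.7 and 23.3, a log2 fold change of -0.40 at a detection p-value under 0.05. Among identifiers detected at 0.01 but under 100, a set without H2-K1, 53.6% passed 1.2-fold in either direction. B2m, the light chain of class I molecules, had a signal of 593 in LIF and 1201 in LIF plus CHIR. Its p-value combined 3 probes and did not pass (0.16 and 0.028), and in the setting that detects by signal B2m was 2.02-fold higher (log2 fold change 1.02), the largest change among the proteasome and antigen presentation genes measured in that setting. A change of this size or more was seen in 0.459% of the tested identifiers at 1000 or more. B2m reached this range only with CHIR, and its LIF signal lay in the range from 100 to 1000. In that lower range 7.34% of identifiers passed 1.5-fold in either direction, against 2.2% at 1000 or more. Tap1 (23.7 and 20.1) and Tap2 (13.2 and 14.9), the peptide transporters, were not detected on either array. The antigen presentation genes thus held lower and higher signals side by side.

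**Figure D4:**
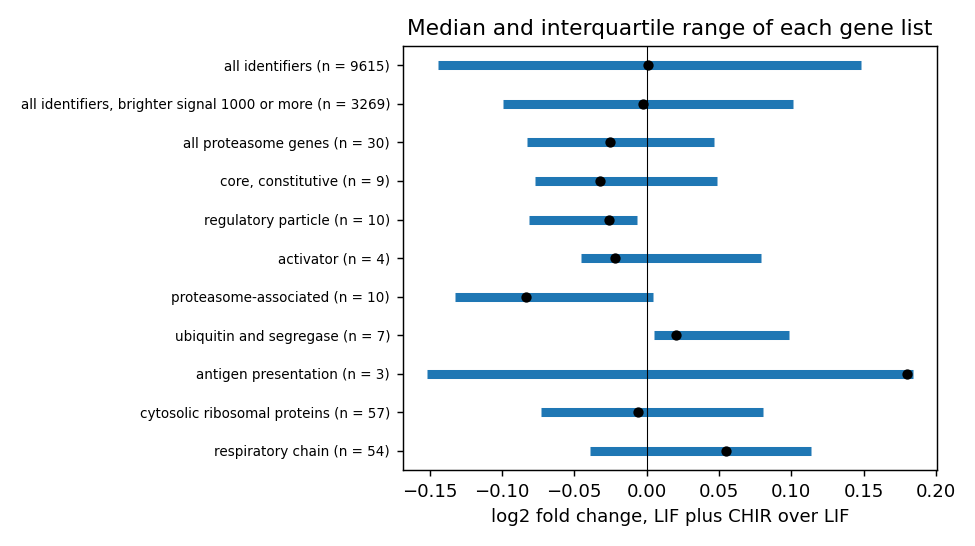
Median (black points) and interquartile range (blue bars) of the log2 fold changes (x axis, LIF plus CHIR over LIF) for each list drawn, with the number of genes tested at a detection p-value under 0.01. The proteasome genes have a median of -0.03, and of the lists drawn the antigen presentation genes, with 3 values, have the widest bar.

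Other abundant complexes were measured on the same arrays for comparison. Of 68 cytosolic ribosomal protein identifiers 57 were tested, and their median log2 fold change was -0.01, with an interquartile range from -0.07 to 0.08. Of 78 respiratory chain identifiers 54 were tested, with a median of 0.05 and an interquartile range from -0.04 to 0.11. In both lists, as in the proteasome genes, 0 were 1.5-fold higher and 0 were 1.5-fold lower. The median size of the change, without its sign, was 0.07 for the proteasome and the ribosomal proteins, 0.08 for the respiratory chain and 0.10 for all identifiers at 1000 or more. These are descriptions of 2 arrays, and no difference between the lists was tested.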

How the data were processed

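RNA of 2 samples, LIF and LIF plus CHIR, was measured on 1 Illumina array each, and the conditions were taken from the sample labels. The authors deposited signal intensities, background-subtracted and summarised per gene identifier, with nearly equal distributions on both arrays (medians of 10.5 and 10.4), which can hide a shift shared by all genes. The normalization method is not given in the sources used here. The deposited detection p-values rest on 936 negative controls, a number taken from the values. The shorter deposited table (11702 identifiers, 36 of them members) held the same values. The longer one is labelled as not normalized and the shorter one as normalized, so the labels do not settle whether the values were normalized. No column was left unused.

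From these, log2 ratios (LIF plus CHIR over LIF) were calculated in Python 3.11.15 using pandas 2.3.3 and numpy 2.4.6. An identifier was tested if either array gave it a detection p-value under 0.01, and dimmer signals were raised to the array's lowest detected one (15.1 and 14.8). The calculation was tested on simulated data. The normexp alternatives used limma 3.58.1 with an offset of 16. With 1 array per condition no test was run. Named were the immunoproteasome subunits and their counterparts, the extremes of each class, every member not detected on both arrays, Pomp, Nfe2l1, Tap1, Tap2, B2m and anything past 1.5-fold. Genes named beyond these were added after their values were seen. Members and lists were chosen with earlier results of these data known. A gene of the antigen presentation list is not reported here and was left out of its counts and median. Promoter sequences are those of RefSeq (GRCm38.p6). The files name no genome build.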

Additional observations from a re-analysis of the deposited data

How the results depend on the processing

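No paired analysis was possible because there is a single array per condition, and no replicate could be left out. Of the 30 proteasome genes tested, 0 were 1.5-fold higher and 0 lower. The lower count became 2 (Psmb8 and Psmb9) of 36 members at a detection p-value under 0.05, and 2 of 46 without a filter. The share of all identifiers past the limit in these settings is not given here, so these counts have no background beside them. In both settings Psmb8 and Psmb9 had log2 fold changes of -1.001 and -0.65, and the immunoproteasome median moved from -0.39 to -0.65. At a limit of 1.2-fold, 2 members were higher and 1 was lower. With detection at 0.05, and with detection by signal (added after the data were seen), 1 antigen presentation gene (B2m) passed 1.5-fold as higher, of 5 and 4 genes. Quantile normalization, equal medians, both normexp corrections, detection on both arrays, the other minimum signals, the shorter table and a limit of 2-fold left both counts at 0. Over these settings Psmb10 lay between -0.48 and -0.39, Psmb5 between 0.26 and 0.34, and Psme2 between 0.32 and 0.37. Psmb8 and Psmb9 had signals near background. Among identifiers that were detected but under 100, 20.7% passed 1.5-fold.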
